A study of Mus musculus with 8 samples.

Results

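The creatine genes described here are 8 genes of creatine synthesis, uptake, phosphorylation and phosphocreatine hydrolysis: *Gatm*, *Gamt*, *Slc6a8*, *Ckb*, *Ckmt1*, *Ckmt2*, *Ckm* and *Alpl*. They were chosen by name from the pathway, with results of these same mice known, and are 8 of the 18820 genes measured. All 8 were measured; where a gene had several probe sets, the one with the highest mean over the 8 arrays was chosen, which mattered here for *Ckm* alone. The tissue was epididymal white fat from 4 male Sucnr1-/- mice and 4 male wild-type (WT) mice, all given semi-synthetic low-fat chow from an age of 8-10 weeks, over 16 weeks, until they were killed at 24-26 weeks. Both genotypes came from intercrosses of Sucnr1+/- animals on a C57BL/6 background. Most of exon 2 of *Sucnr1*, the gene of the succinate receptor, is replaced in the mutants by a cassette of IRES, lacZ and neo, so every cell type of the animal lacks the receptor and not adipose tissue alone. One array was run per mouse, on total RNA of the whole tissue, so that fewer cells of a type and less RNA per cell cannot be told apart.

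Creatine is made from amino acids in successive steps. Glycine amidinotransferase (*Gatm*) moves the amidino group of arginine to glycine and yields guanidinoacetate and ornithine. Guanidinoacetate N-methyltransferase (*Gamt*) then methylates guanidinoacetate with S-adenosylmethionine as the methyl donor. Kidney is a main site of the first step and liver of the second in mammals, and mouse adipocytes express both enzymes. Cells also take creatine up from blood through the sodium- and chloride-dependent transporter encoded by *Slc6a8*. Creatine kinases pass a phosphate between ATP and creatine, and in mouse thermogenic fat a cycle of creatine phosphorylation and phosphocreatine hydrolysis is known to use up ATP.

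Expression is given as RMA log2 values, on which 1 unit is a doubling of the array signal, and differences are Sucnr1-/- minus WT. Between probe sets the values cannot be compared as amounts of RNA. *Sucnr1* itself read 5.41 to 7.11 in the Sucnr1-/- mice and 8.68 to 9.78 in the WT mice, without overlap, as the labels say. In the limma fit no gene of 18820 had a Benjamini-Hochberg adjusted p under 0.05 (0%), while 652 genes were higher (3.46%) and 632 lower (3.36%) in Sucnr1-/- mice at an unadjusted p under 0.05. On the same values the methods' t-test gave 0 genes after adjustment and 686 higher and 561 lower before it. After centring each array on its median, the split before adjustment was 1352 higher and 330 lower, and after quantile normalization 838 higher and 465 lower. Adipocyte markers read high in every mouse, with a list mean of 12.68 to 12.76 in Sucnr1-/- mice and 12.45 to 12.70 in WT mice. Some samples stood apart by liver genes. The mean of 17 hepatocyte genes was 7.56, 5.48, 5.88 and 6.07 in the Sucnr1-/- mice and 5.37, 6.85, 5.71 and 9.51 in the WT mice, and albumin (*Alb*) reached 12.85 in WT mouse 4 and 11.62 in Sucnr1-/- mouse 1. By immediate early genes, which respond within minutes to stimulation or handling, Sucnr1-/- mouse 1 (list mean 9.08) and WT mouse 1 (9.33) stood above the others of their genotype (8.10 to 8.34 in Sucnr1-/- mice, 8.33 to 8.58 in WT mice), and the same 2 mice had the highest neutrophil means (6.99 and 6.38). Values without these mice are therefore given where a result could rest on them.

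Of the 8 creatine genes, the synthesis enzymes differed most, and in opposite directions. *Gatm* was lower and *Gamt* higher in every Sucnr1-/- mouse than in any WT mouse. The transporter, the 4 kinases and *Alpl* overlapped between the genotypes. No creatine gene passed limma's adjusted threshold. Before adjustment, 1 of 8 was higher and 1 of 8 lower, against 3.46% and 3.36% of all genes (p under 0.05). *Ckm* was also called higher by the methods' t-test, with array weights, with median centring, without WT mouse 1 and without mouse 1 of both genotypes, and *Slc6a8* lower without Sucnr1-/- mouse 3. Without overlap of the groups, 1 of 8 was higher and 1 of 8 lower, against 2.37% and 1.87% of all genes. The median difference over the 8 genes was -0.01 and that over all genes 0.01, with 4 members higher and 4 lower on average. With median-centred arrays the members' median was 0.03 and that over all genes 0.05. The genes were picked with results of this contrast in view, so the counts describe them and test nothing.

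**Figure D1:**
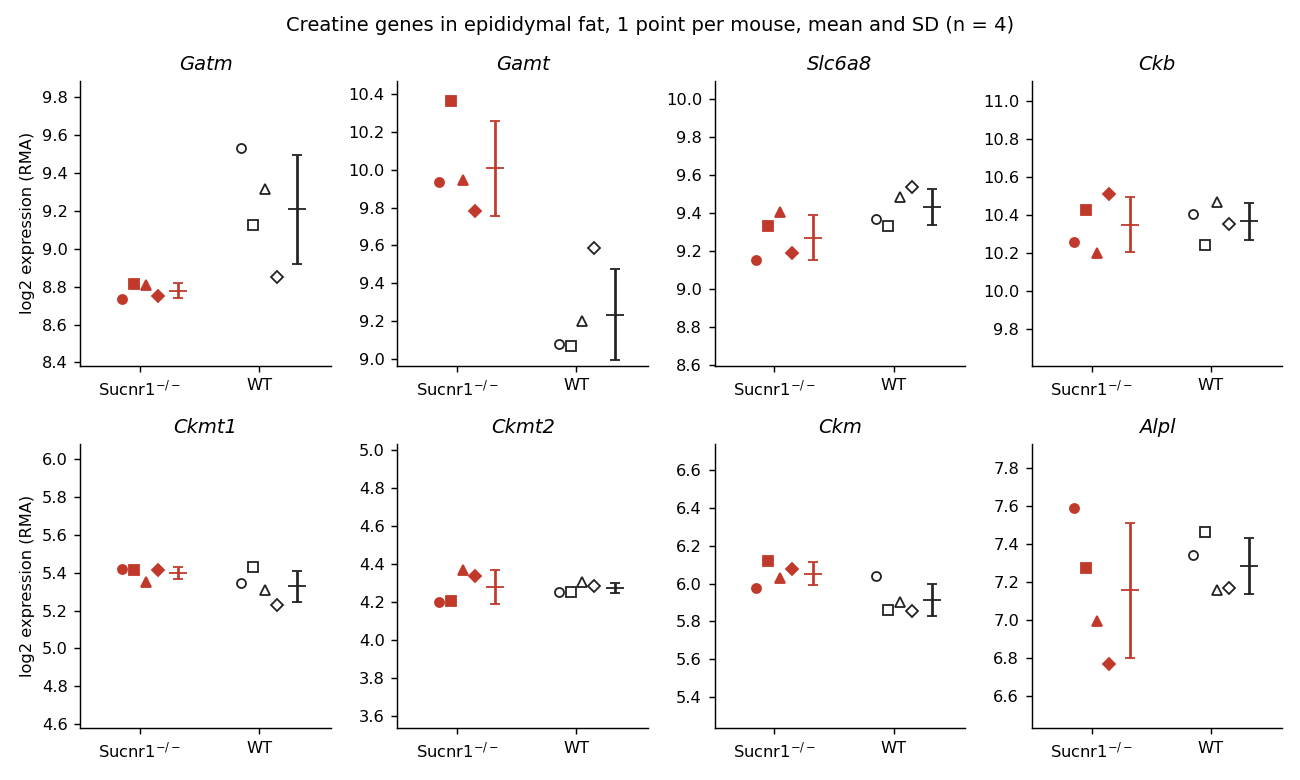
Log2 expression of the 8 creatine genes in epididymal fat, with 1 point per mouse (Sucnr1-/- filled red on the left of each panel, WT open on the right) and the mean with its SD (n = 4) beside the points. Every panel spans 1.5 log2 units; *Gatm* of the Sucnr1-/- mice lies below all WT mice and *Gamt* above all WT mice, and the other 6 panels overlap.

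*Gatm*, the first enzyme of synthesis, read 8.74, 8.81, 8.81 and 8.75 in the Sucnr1-/- mice, against 9.53, 9.13, 9.32 and 8.85 in the WT mice. The Sucnr1-/- values lay close together just under the lowest WT mouse, from which the nearest was 0.04 away, and the WT mice were spread out above them. The means were 8.78 ± 0.040 in Sucnr1-/- mice and 9.21 ± 0.288 in WT mice (SD, n = 4 each). The difference was -0.43 ± 0.13 (SE), with a 95% interval of -0.73 to -0.13, or 0.742 of the WT signal. The limma p was 0.0098 before adjustment and 0.712 after it. Both the interval and this p take the variance as equal in the 2 genotypes, although the SDs differed widely. The exact two-sided permutation test over mice gave p = 0.0286, the smallest value that 4 against 4 mice allow. Every gene without overlap gets this value, so it adds nothing to the separation of the groups.

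*Gamt*, the second enzyme, read 9.94, 10.36, 9.94 and 9.78 in the Sucnr1-/- mice, against 9.08, 9.07, 9.20 and 9.59 in the WT mice. WT mouse 4 came nearest to the Sucnr1-/- mice, 0.20 under the lowest of them. The means were 10.01 ± 0.249 in Sucnr1-/- mice and 9.24 ± 0.242 in WT mice (SD, n = 4 each). The difference was 0.77 ± 0.15 (SE), with a 95% interval of 0.42 to 1.12, a 1.71-fold higher signal in Sucnr1-/- mice. By unadjusted limma p (0.000772) *Gamt* ranked 15 of 18820 genes, yet its adjusted p was 0.712; the exact permutation test again gave 0.0286.

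The 2 enzymes differed in how the mice spread. *Gatm* varied little among the Sucnr1-/- mice and widely among the WT mice, whereas *Gamt* had similar SDs in both genotypes. Within an array, *Gamt* minus *Gatm* was 1.20, 1.55, 1.13 and 1.03 in the Sucnr1-/- mice, against -0.45, -0.06, -0.11 and 0.73 in the WT mice. All 4 Sucnr1-/- mice thus lay above all 4 WT mice, of which mouse 4 was the closest. The mean was 1.23 ± 0.22 in Sucnr1-/- mice and 0.03 ± 0.50 in WT mice (SD, n = 4 each), and since both genes had been chosen for their pattern no test is given.

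**Figure D2:**
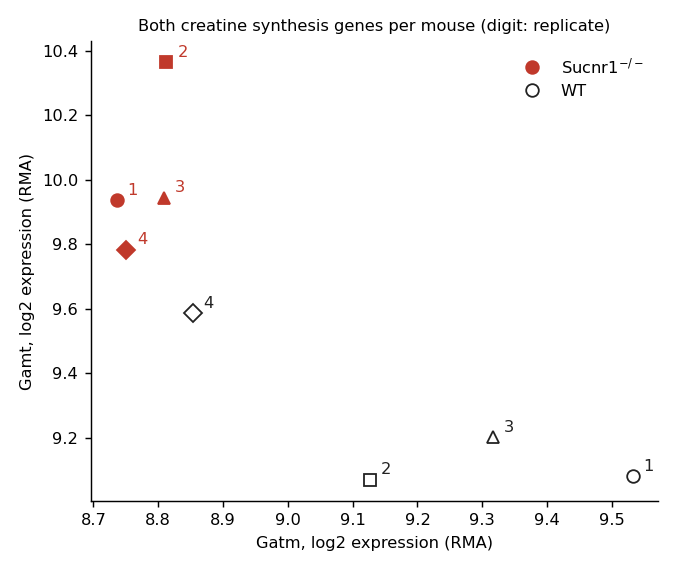
*Gamt* (vertical axis) against *Gatm* (horizontal axis), both as log2 expression, with 1 point per mouse; filled red symbols are Sucnr1-/- mice, open symbols WT mice, and digits give the replicate. The Sucnr1-/- mice stand at the upper left, with *Gatm* near 8.78 and *Gamt* of 9.78 or more, and WT mouse 4 lies between them and the other WT mice.

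Marker genes of other cell types were read beside the synthesis genes. All 10 macrophage markers were lower on average in Sucnr1-/- mice, 4 of them at an unadjusted p under 0.05, and their mean ranged from 10.10 to 10.57 in Sucnr1-/- mice and from 10.48 to 11.01 in WT mice. Among the WT mice the order by macrophage mean was the same as the order by *Gatm*; among the Sucnr1-/- mice the one with the highest macrophage mean, mouse 1, had the lowest *Gatm*. All 7 B cell markers were also lower on average in Sucnr1-/- mice, with a median difference of -0.82. Their means were 5.79 to 6.97 in Sucnr1-/- mice and 6.36 to 8.40 in WT mice. The WT order was again that of *Gatm*, whereas the order of the Sucnr1-/- mice was the reverse of their *Gatm* order. With all mice the mean difference was -0.83 for the B cell list and -0.41 for the macrophage list. Without WT mouse 1 these were -0.42 and -0.30, and the *Gatm* difference was -0.32. Of 14 adipocyte markers 13 were higher on average in Sucnr1-/- mice, by a median of 0.08. The kidney tubule genes, looked at because kidney is rich in *Gatm*, averaged 4.77 over the Sucnr1-/- mice and 4.54 over the WT mice, without overlap and in the opposite direction to *Gatm*. They were near the bottom of the scale, where 10.4% to 29.7% of genes read lower, and the list difference of 0.23 was 0.15 without Sucnr1-/- mouse 3, in which *Kap* read 5.83. The liver is rich in *Gamt*, and all 17 hepatocyte genes had lower means in Sucnr1-/- mice, with a median difference of -0.60. Without WT mouse 4, 15 of 17 were higher, with a median of 0.25. The mean difference of this list was -0.61 with all mice and 0.27 without WT mouse 4. It was -0.17 without both WT mouse 4 and Sucnr1-/- mouse 1. WT mouse 4 had the highest hepatocyte mean of the 8 mice and the highest *Gamt* of the WT mice. Without that mouse the *Gamt* difference was 0.89 and the *Gatm* difference -0.55, and without both WT mouse 4 and Sucnr1-/- mouse 1 the *Gamt* difference was 0.91. The part of the macrophage, B cell, adipocyte, kidney tubule and hepatocyte markers in either difference was not tested.

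**Figure D3:**
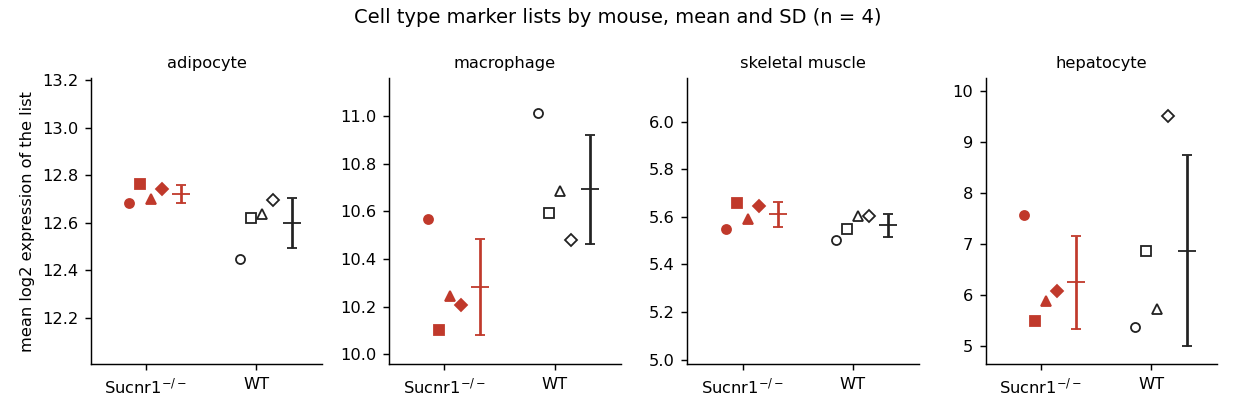
Mean log2 expression of 4 cell type marker lists, with 1 point per mouse (Sucnr1-/- filled red on the left, WT open on the right) and the mean with its SD (n = 4). The hepatocyte panel has a wider axis than the others: WT mouse 4 reads 9.51 there, whereas adipocyte and skeletal muscle means vary by under 0.4 among all mice.

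The promoters of the synthesis genes are shown because these were the members without overlap, and that of *Ckb* as a member whose groups overlapped. Each is the 250 bases before the annotated start in RefSeq (GRCm38.p6), on the strand of the gene, 5′ to 3′; capitals mark the GC box (GGGCGG), the CCAAT box and the TATA box (TATAAA), searched on both strands with no matches overlapping in these 3 windows. *Gatm* lies at chr2:122611278-122611527, *Gamt* at chr10:80261013-80261262 and *Ckb* at chr12:111672339-111672588, all 3 on the minus strand and each ending at the base before the start of its gene.
Gatm: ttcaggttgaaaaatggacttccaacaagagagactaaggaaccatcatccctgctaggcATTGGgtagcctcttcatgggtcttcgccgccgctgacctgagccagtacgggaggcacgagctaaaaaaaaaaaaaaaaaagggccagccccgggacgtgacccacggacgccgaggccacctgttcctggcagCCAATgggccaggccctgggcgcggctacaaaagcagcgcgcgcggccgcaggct
Gamt: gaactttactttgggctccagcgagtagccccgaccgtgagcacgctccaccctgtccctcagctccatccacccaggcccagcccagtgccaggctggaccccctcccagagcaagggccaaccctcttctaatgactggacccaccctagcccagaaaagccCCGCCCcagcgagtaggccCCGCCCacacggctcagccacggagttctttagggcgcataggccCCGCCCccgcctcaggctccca
Ckb: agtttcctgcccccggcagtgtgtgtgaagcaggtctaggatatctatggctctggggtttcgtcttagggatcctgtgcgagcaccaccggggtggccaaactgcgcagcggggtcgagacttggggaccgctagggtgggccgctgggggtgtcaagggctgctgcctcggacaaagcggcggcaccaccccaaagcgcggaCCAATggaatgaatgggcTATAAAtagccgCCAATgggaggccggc
The *Gamt* window held 3 GC boxes and none of the other letters searched. The *Gatm* window held 2 CCAAT boxes and no GC box, and the *Ckb* window had 2 CCAAT boxes and a TATA box. Of 32851 mouse promoter windows of the same length, 32.7% held a GC box, 33.9% a CCAAT box and 12.4% a TATA box, so each match is common. The share of G and C was 66.8% for *Gamt*, 59.2% for *Gatm* and 62.8% for *Ckb*, against a median of 52.4% over all windows. The hexamer CACGTG and the half-site of oestrogen-related receptors, AAGGTCA, were in none of these 3 windows and in 6.02% and 4.08% of all windows. An entry was found for 7 of the 8 members, *Slc6a8* being the other.

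Genes next to the synthesis enzymes on the chromosome, looked at after the values were seen, gave smaller differences. Around *Gatm*, the 3 nearest measured genes on each side (*Duox1*, *Shf*, *Slc28a2*, *Slc30a4*, *Bloc1s6* and *Sqor*) had differences of -0.16 to 0.25. Around *Gamt* (*Efna2*, *Pwwp3a*, *Ndufs7*, *Dazap1*, *Rps15* and *Apc2*) they were -0.07 to 0.14. None of the 12 had an unadjusted limma p under 0.05.

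The genes whose pattern over the 8 arrays was most like that of *Gatm* were *Tle4* (Pearson r = 0.99), a transcriptional corepressor of the Groucho family, and *Cdk18* (r = 0.96), a cyclin-dependent kinase. With group means subtracted, *Tle4* (r = 0.99) and *Phf6* (r = 0.97) were closest. *Gamt* was closest to *Gng7* (r = 0.99), a G protein gamma subunit, and *Mrpl40* (r = 0.98), a protein of the mitochondrial ribosome, and with group means subtracted to *Il17d* and *Ppp1r3d* (r = 0.97 each). Predicted and clone-named genes, olfactory and vomeronasal genes, immunoglobulin and T cell receptor segments and small RNA genes were left out of this search. The genes named are the highest of those left of 18820, over 8 arrays that share the group difference and the same normalization. They are descriptions without a test. Between *Gatm* and *Gamt* themselves r was -0.48 with group means subtracted.

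The transporter had a lower mean in the mutants, with overlap between the genotypes. *Slc6a8* read 9.15, 9.33, 9.41 and 9.19 in the Sucnr1-/- mice, against 9.37, 9.33, 9.48 and 9.54 in the WT mice. Sucnr1-/- mice 1, 2 and 4 lay below all WT mice, mouse 2 only just, and mouse 3 among them. The difference was -0.16 ± 0.08 (SE), with a 95% interval of -0.34 to 0.02, a limma adjusted p of 0.720 and an exact permutation p of 0.114. It was -0.09 without WT mouse 4 and Sucnr1-/- mouse 1.

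The kinases did not separate the genotypes. *Ckb*, the cytosolic brain-type enzyme, read 10.25, 10.42, 10.20 and 10.51 in the Sucnr1-/- mice, against 10.41, 10.24, 10.47 and 10.35 in the WT mice. High and low values were mixed in both groups, and the difference was -0.02 ± 0.09 (SE) with a 95% interval of -0.22 to 0.18 (limma adjusted p = 0.960), whose direction turned under 7 of 18 other settings, median centring and quantile normalization included.

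The mitochondrial kinases lie in the intermembrane space, next to the source of ATP. *Ckmt1*, the ubiquitous form, read 5.42, 5.41, 5.35 and 5.41 in the Sucnr1-/- mice, against 5.35, 5.43, 5.31 and 5.23 in the WT mice, with a difference of 0.07 ± 0.06 (SE), an interval of -0.07 to 0.21 and a limma adjusted p of 0.781. *Ckmt2*, the sarcomeric form of heart and skeletal muscle, read 4.20, 4.21, 4.37 and 4.34 in the Sucnr1-/- mice, against 4.25, 4.25, 4.31 and 4.28 in the WT mice. Its difference was 0.01 ± 0.06 (SE), with an interval of -0.14 to 0.15 (limma adjusted p = 0.987), and its direction turned under 5 of 17 settings, quantile normalization included. Both signals were low on these arrays, since 31.4% of genes read lower than *Ckmt1* and 11.8% lower than *Ckmt2*.

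*Ckm*, the cytosolic kinase of muscle, read 5.98, 6.12, 6.03 and 6.08 in the Sucnr1-/- mice, against 6.04, 5.86, 5.90 and 5.85 in the WT mice. WT mouse 1 lay among the Sucnr1-/- mice and the other WT mice below them. The difference was 0.14 ± 0.07 (SE), with an interval of -0.01 to 0.29, a limma adjusted p of 0.719 and an exact permutation p of 0.0857. The second *Ckm* probe set disagreed, with 4.55, 4.87, 4.59 and 4.56 in the Sucnr1-/- mice, against 4.47, 4.81, 4.63 and 4.61 in the WT mice and a difference of 0.01; the mean of both gave 0.07. Skeletal muscle genes, of which 12 of 23 were higher and 11 lower in Sucnr1-/- mice, had means of 5.55 to 5.66 in Sucnr1-/- mice and 5.50 to 5.60 in WT mice. At an unadjusted limma p under 0.05, 2 of them were higher and 1 lower. *Myl1*, named here after its values were seen, was higher in every Sucnr1-/- mouse than in any WT mouse. Its difference was 0.54 ± 0.13 (SE), with a limma adjusted p of 0.712.

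**Figure D4:**
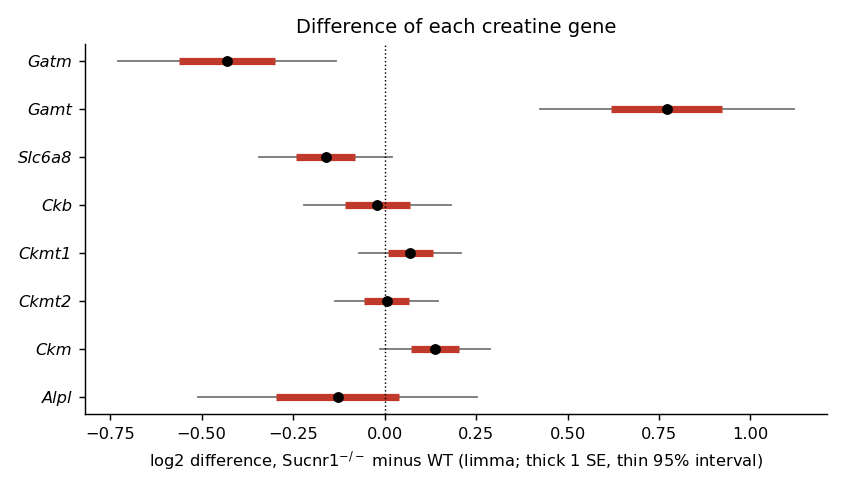
Log2 difference (Sucnr1-/- minus WT, horizontal axis) of each creatine gene from the limma fit, with thick bars for 1 SE and thin lines for the 95% interval (n = 4 mice per genotype). The intervals of *Gatm* (-0.73 to -0.13) and *Gamt* (0.42 to 1.12) leave out 0, before any adjustment over genes, and the other 6 include it. All intervals take the variance of a gene as equal in both genotypes.

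*Alpl*, tissue-nonspecific alkaline phosphatase, which has been described to hydrolyse phosphocreatine in mitochondria of mouse thermogenic fat, was the most variable member among the Sucnr1-/- mice. It read 7.59, 7.27, 6.99 and 6.77 in the Sucnr1-/- mice, against 7.34, 7.46, 7.16 and 7.17 in the WT mice. The highest and the lowest of the 8 values were both from Sucnr1-/- mice. The SD was 0.355 in Sucnr1-/- mice and 0.148 in WT mice, and the difference was -0.13 ± 0.17 (SE) with an interval of -0.51 to 0.25 (limma adjusted p = 0.847). Without Sucnr1-/- mouse 4 it was 0.0013. Of 7 other phosphatase and phosphate genes 5 had higher and 2 lower means, none at an unadjusted p under 0.05; *Alpi*, the intestinal alkaline phosphatase, differed by 0.15 ± 0.10 (SE) and *Pigo*, an enzyme of the GPI anchor by which such phosphatases are held, by -0.14 ± 0.09 (SE).

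The genes that feed the synthesis steps were read in the same way. Of 12 genes of arginine and ornithine metabolism, 4 had higher and 8 lower means in Sucnr1-/- mice, with a median difference of -0.32 (-0.21 without WT mouse 4), and 1 was lower at an unadjusted p under 0.05. Of the immediate early genes, 10 of 13 also had lower means in Sucnr1-/- mice, with a median of -0.24. At an unadjusted limma p under 0.05, 1 of the 13 was higher and 1 lower, the higher one without overlap of the genotypes. The mean difference of the immediate early list was -0.27 with all mice, -0.05 without WT mouse 1 and -0.27 without mouse 1 of both genotypes. The order of the Sucnr1-/- mice was the same for both list means, but that of the WT mice was not. The mean difference of the arginine and ornithine list was -0.32 with all mice and -0.39 without mouse 1 of both genotypes. The arginine and ornithine gene at an unadjusted p under 0.05 was *Azin1*, an inhibitor of antizyme, at -0.36 ± 0.16 (SE). *Odc1*, which turns ornithine into putrescine, differed by -0.34 ± 0.21 (SE). *Arg1*, the arginase that competes for arginine, lay at separate levels, with 8.82, 6.14, 6.44 and 6.16 in the Sucnr1-/- mice, against 8.76, 8.75, 6.20 and 8.78 in the WT mice. The high level was seen in 1 Sucnr1-/- mouse and 3 WT mice, WT mouse 1 with the lowest hepatocyte mean among them, and the difference was -1.23 ± 0.76 (SE) with a limma adjusted p of 0.737.

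Among 14 genes of the methyl donor cycle, which supplies S-adenosylmethionine, 7 had higher and 7 lower means, with none at an unadjusted p under 0.05 and a median difference of -0.03. This list moved with the liver genes. *Gnmt*, the glycine methyltransferase that is abundant in liver, read 5.15 to 5.79 in Sucnr1-/- mice, against 5.07, 5.79, 5.25 and 7.92 in the WT mice. In WT mouse 4 *Mat1a*, the hepatic methionine adenosyltransferase, and *Bhmt*, betaine-homocysteine methyltransferase, named here after their values were seen, read 10.00 and 9.03. Without that mouse 11 of the 14 genes had higher means and the median was 0.05. With median centring of all mice the median of the list was 0.01, against 0.05 over all genes. *Ahcyl2* differed by 0.17 ± 0.09 (SE) and *Ahcy*, which removes S-adenosylhomocysteine, the product left after methylation, by -0.14 ± 0.15 (SE).

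The downstream lists showed little difference. Of 14 genes of adenine nucleotide transfer 6 had higher and 8 lower means, with a median of -0.01 that was 0.04 after median centring; *Slc25a4*, an ADP/ATP carrier, differed by 0.15 ± 0.07 (SE). Of 15 genes of the thermogenic programme 7 had higher and 8 lower means, with a median of -0.02 that was 0.02 after centring. The median over all genes was 0.05 after centring. *Cox7a1*, a cytochrome oxidase subunit of heart, muscle and brown fat, differed by 0.38 ± 0.17 (SE), and *Kcnk3*, a potassium channel, by -0.26 ± 0.12 (SE). *Cox8b*, another such subunit, differed by -0.18 ± 0.11 (SE). *Ucp1*, the uncoupling protein that defines thermogenic fat, named here after its values were seen, read 3.88 to 4.16 in Sucnr1-/- mice and 3.95 to 4.36 in WT mice, near the bottom of the array scale. Of 18 other genes of the Slc6 transporter list 10 had higher and 8 lower means, and 1 was higher at an unadjusted p under 0.05, *Slc6a18*, a transporter of neutral amino acids in kidney, at 0.21 ± 0.09 (SE). Among the lower genes was *Slc16a12*, which is of the Slc16 family and not of Slc6, at -0.04 ± 0.22 (SE). No gene of these lists had a limma adjusted p under 0.05.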

How the data were processed

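Total RNA of epididymal fat was hybridised to Affymetrix Mouse Gene 1.1 ST arrays, 1 per mouse. The authors normalised the arrays by RMA, and the deposited values are log2 expression per probe set; no software version is given here. Of 35556 probe sets, 21218 had exactly 1 gene symbol in the platform annotation, giving 18820 genes, each by its brightest probe set. Genotypes were compared with limma 3.58.1 (lmFit and eBayes, two-sided, R 4.3.3) over all genes with Benjamini-Hochberg adjustment at 0.05, after a check on simulated data, and single values with an exact permutation test over mice. With 4 arrays a genotype their number limits precision. Scan batches were not analysed here. The members and lists were chosen with earlier results of these data known; the hepatocyte and kidney tubule lists and the alternatives without 2 mice were added after seeing the data. The text names all members, up to 3 genes of smallest p per pathway list, and the nearest genes by correlation. *Alb*, *Kap*, *Ucp1*, *Mat1a*, *Bhmt*, *Myl1*, *Slc16a12* and chromosomal neighbours were added after their values were seen. Alternatives were centring, quantile normalization, leaving out the dimmest genes, the mean of probe sets, array weights, the methods' t-test, a prior that depends on intensity, a replicate block and leaving out mice. Promoter sequences are from RefSeq (GRCm38.p6).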

Additional observations from a re-analysis of the deposited data

Results flagged for a closer look

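Over the genes and list means named here, 186 groups of 4 mice were examined for a mouse far from the others, and 7 were flagged, where chance flags about 1 in 20. Among the creatine genes this was *Ckmt1* alone, at 5.35 in Sucnr1-/- mouse 3 against 5.41 to 5.42 in the other Sucnr1-/- mice. *Arg1* was flagged in both genotypes, at 8.82 in Sucnr1-/- mouse 1 (6.14 to 6.44 in the others) and at 6.20 in WT mouse 3 (8.75 to 8.78 in the others). *Slc6a11* read 5.11 in Sucnr1-/- mouse 3, against 5.36 to 5.39 in the others. *Rps15*, a neighbour of *Gamt*, read 13.29 in WT mouse 4, against 13.42 to 13.44. The mean of the epididymis and testis genes was 5.23 in Sucnr1-/- mouse 4, against 4.63 to 4.70, and that of the endothelium genes was 10.28 in WT mouse 2, against 9.78 to 9.84.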

How the results depend on the processing

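No creatine gene, and no gene of any kind, had an adjusted p under 0.05 under any alternative. *Gatm* stayed lower (-0.55 to -0.31) and *Gamt* higher (0.65 to 0.91) in Sucnr1-/- mice in all 18, with an unadjusted p under 0.05 in each. The adjusted p was 0.413 to 0.926 for *Gatm* and 0.372 to 0.926 for *Gamt*. Every fit estimated a shared variance per gene for both genotypes, while the *Gatm* SDs were 0.040 and 0.288. No test with unequal variances was run, so the 18 settings do not cover this assumption. Leaving out single mice gave -0.55 to -0.32 for *Gatm* and 0.65 to 0.89 for *Gamt*. *Slc6a8* (-0.21 to -0.09), *Ckmt1* (0.03 to 0.11) and *Ckm* (0.07 to 0.20) kept their direction throughout. *Ckmt1* was 0.04 without WT mouse 4. Before adjustment *Ckm* passed 0.05 under 5 alternatives and *Slc6a8* under 1, without Sucnr1-/- mouse 3. *Ckb* turned to 0.021 with median centring, 0.0026 with quantile normalization, 0.025 without WT mouse 1 and Sucnr1-/- mouse 1 and 0.0068 without WT mouse 4 and Sucnr1-/- mouse 1, and ranged from -0.074 to 0.030 without single mice. *Ckmt2* turned to -0.032 with quantile normalization and ranged from -0.025 to 0.032 without single mice. *Alpl* ranged from -0.27 to 0.0013 without single mice. Genes higher at an unadjusted p under 0.05 numbered 369 when the dimmest 40% of genes were left out, which also dropped *Ckmt1*, *Ckmt2* and *Ckm*, 1352 with median centring and 440 to 870 without single mice. Genes lower numbered 330 with median centring, 1096 with a replicate block, 973 without WT mouse 4 and Sucnr1-/- mouse 1, and 368 to 885 without single mice, the fewest without Sucnr1-/- mouse 2. The deviations of same-numbered mice from their group means correlated at 0.01 to 0.45, and not every mouse best with its own number, so the numbers were not taken to pair the mice, although 3 of the 4 correlations were over 0.1. With the replicate block the unadjusted limma p was 0.011 for *Gatm* and 0.00368 for *Gamt*. The causes were not tested.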
